A study of Mus musculus with 3 samples.

Results

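The members described here are the T cell receptor alpha variable genes of the mouse, all genes of the count matrices whose symbol begins with Trav and a digit. There were 128 of them among the 32285 genes counted. All lay on chromosome 14 of build GRCm38, on the plus strand, in a span of 1549.75 kb from 52427928 to 53977678. GENCODE M21 annotates 108 as V genes and 20 as pseudogenes, in 23 numbered subgroups, and 10 carry a dv symbol because the delta chain of the gamma-delta receptor also uses them. The data were single-cell RNA libraries of the thymus of female mice aged 4 weeks, with 1 mouse and 1 library per genotype. The genotypes were p53+/-, p53 AD/- and p53-/-, so by these labels each mouse carried at least 1 lost p53 allele, although the design text of the series calls its first group WT. The labels leave AD unexplained, and dimers of p53 are named in the title of the series. The strain labels give an even mix of BALB/C with C57BL6, C57BL7 and C57BL8 in that order of genotypes, labels that rise by 1 from group to group and may be an error of entry, so strain label, mouse and genotype cannot be told apart, and no test between genotypes was made.

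Each developing T cell assembles its alpha chain by joining 1 Trav gene to 1 Traj segment downstream of the V genes, using the RAG recombinase. Early joins in double-positive thymocytes are known to use Trav genes near the Traj segments, and later joins on the same allele delete the used segments and reach Trav genes farther away. Joining can go on until the receptor passes positive selection, which raises Cd69, Cd5 and Itm2a and shuts off Rag1 and Rag2. Cells then mature and turn on the exit genes Klf2, S1pr1 and Ccr7.

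Cells were sorted in silico by these genes. Preselection cells had at least 1 Rag1 UMI (unique molecular identifier, a counted RNA molecule) and no UMI of Itm2a, Cd69 and Cd5. Selected cells had at least 3 UMIs of Itm2a, Cd69 and Cd5 together, and mature cells at least 3 UMIs of Ccr7, Klf2, S1pr1 and Ms4a4b together. A cell that met both of the last rules was counted as mature. In the order p53+/-, p53 AD/- and p53-/-, in which all triplets of values below are given, this gave 3814, 2808 and 4206 preselection cells, 1437, 1053 and 1635 selected cells, and 625, 540 and 969 mature cells. Their median depth differed by stage, at 1998 to 2771 UMIs in preselection, 3483 to 4315 in selected and 6081 to 7495 in mature cells. The members held 16750 UMIs in the 8150, 6171 and 9543 cells kept. Pairs of libraries shared 15 to 29 barcodes. Among cells that carried at least 5 UMIs of B cell, myeloid, stromal, endothelial or epithelial markers and no Cd3 UMI, a Trav UMI was found in 2 of 39, 1 of 52 and 0 of 85 cells, at median depths of 8536, 8697 and 6386 UMIs. A count of 0 in 85 cells allows a share of up to 4.25% (upper limit of the exact Clopper-Pearson 95% interval, for counting error only).

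Whether a member had UMIs went with how much of its sequence is its own. The central part of the mouse locus holds repeated copies of a block of Trav genes, marked d (39 symbols) and n (34 symbols) beside the unmarked original. The Trav12-2 set shows the case at its clearest. The lines give the last 120 bases of the V exon on the plus strand of GRCm38, 5′ to 3′, from GENCODE M21 transcripts, and capitals mark bases that differ from Trav12n-2 at the same position.
Trav12n-2, chr14:53227281-53227400: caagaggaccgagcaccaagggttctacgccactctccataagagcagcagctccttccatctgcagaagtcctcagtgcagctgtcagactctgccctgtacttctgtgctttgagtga
Trav12d-2, chr14:52916307-52916426: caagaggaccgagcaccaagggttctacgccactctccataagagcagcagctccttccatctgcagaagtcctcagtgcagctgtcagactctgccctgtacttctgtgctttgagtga
Trav12-2, chr14:53616795-53616914: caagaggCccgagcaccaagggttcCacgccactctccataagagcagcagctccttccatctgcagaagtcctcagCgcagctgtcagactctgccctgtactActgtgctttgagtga
Trav12n-2 and Trav12d-2 are identical here and had 0 UMIs each in all 3 libraries. Trav12-2 differs at 4 of the 120 positions and had 217 UMIs. The Trav16 set, shown because it led the changes between stages, keeps its copies apart by fewer bases. Here capitals mark bases that differ from Trav16n.
Trav16n, chr14:53351502-53351621: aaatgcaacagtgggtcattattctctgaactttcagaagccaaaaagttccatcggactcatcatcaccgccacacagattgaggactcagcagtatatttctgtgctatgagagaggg
Trav16d-dv11, chr14:53047702-53047821: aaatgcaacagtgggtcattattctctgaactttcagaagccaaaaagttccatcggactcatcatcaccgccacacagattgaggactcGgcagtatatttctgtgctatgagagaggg
Trav16, chr14:53743586-53743705: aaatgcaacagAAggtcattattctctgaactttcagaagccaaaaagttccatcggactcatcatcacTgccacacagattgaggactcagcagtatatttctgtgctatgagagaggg
Trav16d-dv11 differs from Trav16n at 1 of these positions and Trav16 at 3, and all 3 genes were counted, with 1288 UMIs for Trav16n, 334 for Trav16d-dv11 and 538 for Trav16.

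Across all members, the share of 90-base windows of the transcript that occur in no other Trav gene was computed as a measure of unique sequence. Of 38 members with no such window, 33 had 0 UMIs and 37 had fewer than 10, and together they held 15 of the 16750 UMIs. Of 23 members in which every window was unique, 1 had 0 UMIs, and the median was 196 UMIs. In all, 39 members had 0 UMIs, 89 had at least 1, and 64 had at least 10 in each library. The d and n copies fill much of the distal and middle parts of the locus, where 19 of the 43 most distal members and 18 of the 43 middle members had no unique window; this held for 1 of the 42 most proximal ones. Median unique shares were 5.52%, 20.5% and 88.3% in these distal, middle and proximal sections. Shares of the distal and middle sections are those of their countable members, and a low count of a copied member says nothing of its use. This holds for the natural killer T cell genes: Trav11 (7 UMIs) and Trav11d (0 UMIs) are identical over the aligned part of their transcripts, and 0.394% of Trav11 windows were unique.

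**Figure D1:**
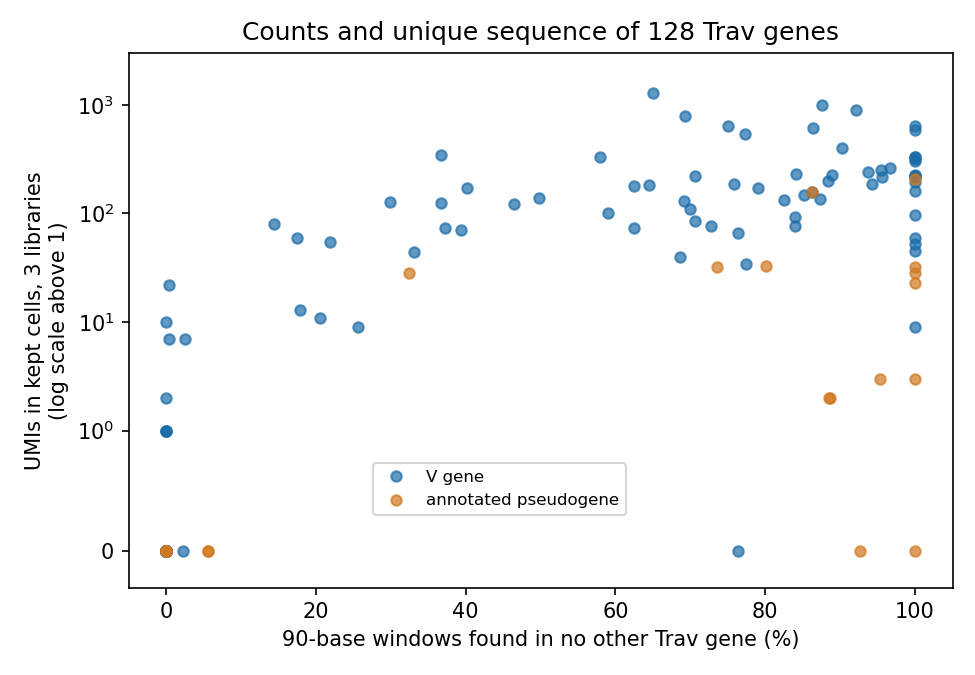
Each point is 1 of the 128 Trav genes, placed by the share of its 90-base windows found in no other Trav gene (x axis, percent) and by its UMIs in kept cells of the 3 libraries (y axis, logarithmic above 1). The genes at 0% unique windows lie at or below 10 UMIs, whereas genes above 50% reach 1288.

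Along the locus, the section nearest the Traj segments held most of the Trav UMIs counted in preselection cells. It is also the section whose members have the most unique sequence, and it was the largest in selected and mature cells as well. The proximal section (Trav7-4 to Trav23, 177.327 to 693.267 kb from Traj61, the first Traj segment) held 59.6%, 59.1% and 59.5% of Trav UMIs. The middle section (Trav16d-dv11 to Trav6-4) held 23.0%, 25.9% and 24.9%, and the distal section (Trav1 to Trav8d-2) 17.4%, 15.0% and 15.6%. The order of the sections was the same in every library. With each cell counted by its leading Trav gene only, the proximal share was 60.7%, 59.3% and 58.3% of 1215, 800 and 1064 cells. Cells with a tie for the lead were left out.

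Use was spread over many members. The 10 most used genes of each library took 39.9%, 43.4% and 42.2% of Trav UMIs in preselection cells, and the effective number of members (the inverse of the summed squared shares) was 52.8, 50.8 and 50.2. Trav3-3 had the highest mean, with 4.76%, 6.68% and 5.27% of Trav UMIs. Trav16n followed with 4.85%, 4.99% and 5.74%. Trav13-1 took 4.43%, 4.59% and 5.22%, and Trav14d-3-dv8 4.05%, 4.45% and 5.12%. The ranges of these 4 genes overlap, so their order does not exceed the spread between libraries. The next 6 were Trav4-4-dv10, Trav6-7-dv9, Trav21-dv12, Trav15-1-dv6-1, Trav7-3 and Trav14-2, with means from 4.47% down to 2.32%. Of the 10, 7 lie in the proximal section, and 5 are shared with the delta chain.

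Both ends of the locus were in use. Trav1, the gene farthest from the Traj segments at 1726.13 kb and known as the V gene of mucosal-associated invariant T cells, took 1.5%, 1.82% and 1.98% of preselection Trav UMIs. Trav2 took 1.43% ± 0.11 (SD, n = 3) and Trav3-1 1.63% ± 0.27. At the other end, Trav21-dv12 took 3.76% ± 1.06, the annotated pseudogene Trav22 2.02% ± 0.86 and Trav23, the last gene, 0.284% ± 0.262. Their V exon ends are shown because unlike the copied genes these sequences are unique over their whole length; capitals mark the conserved cysteine codon found by reading the frame in the last 30 bases.
Trav1, chr14:52428757-52428876: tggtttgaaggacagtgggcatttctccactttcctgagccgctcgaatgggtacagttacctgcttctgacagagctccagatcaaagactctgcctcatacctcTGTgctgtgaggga
Trav21-dv12, chr14:53876633-53876752: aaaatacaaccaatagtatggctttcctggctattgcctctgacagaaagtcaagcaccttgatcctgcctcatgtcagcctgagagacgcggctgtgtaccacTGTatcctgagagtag
Trav22, chr14:53927476-53927595: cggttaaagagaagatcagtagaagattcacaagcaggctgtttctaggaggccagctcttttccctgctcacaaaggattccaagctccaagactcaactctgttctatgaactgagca
The longest stretch free of stop codons was 68 codons in Trav22, against 109 to 156 codons in the 108 V genes, and no cysteine codon was found in its frame within the last 30 bases. The same search found such a codon in 107 of the 108 V genes, though not in Trav3-1, and in 17 of the 20 pseudogenes.

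**Figure D2:**
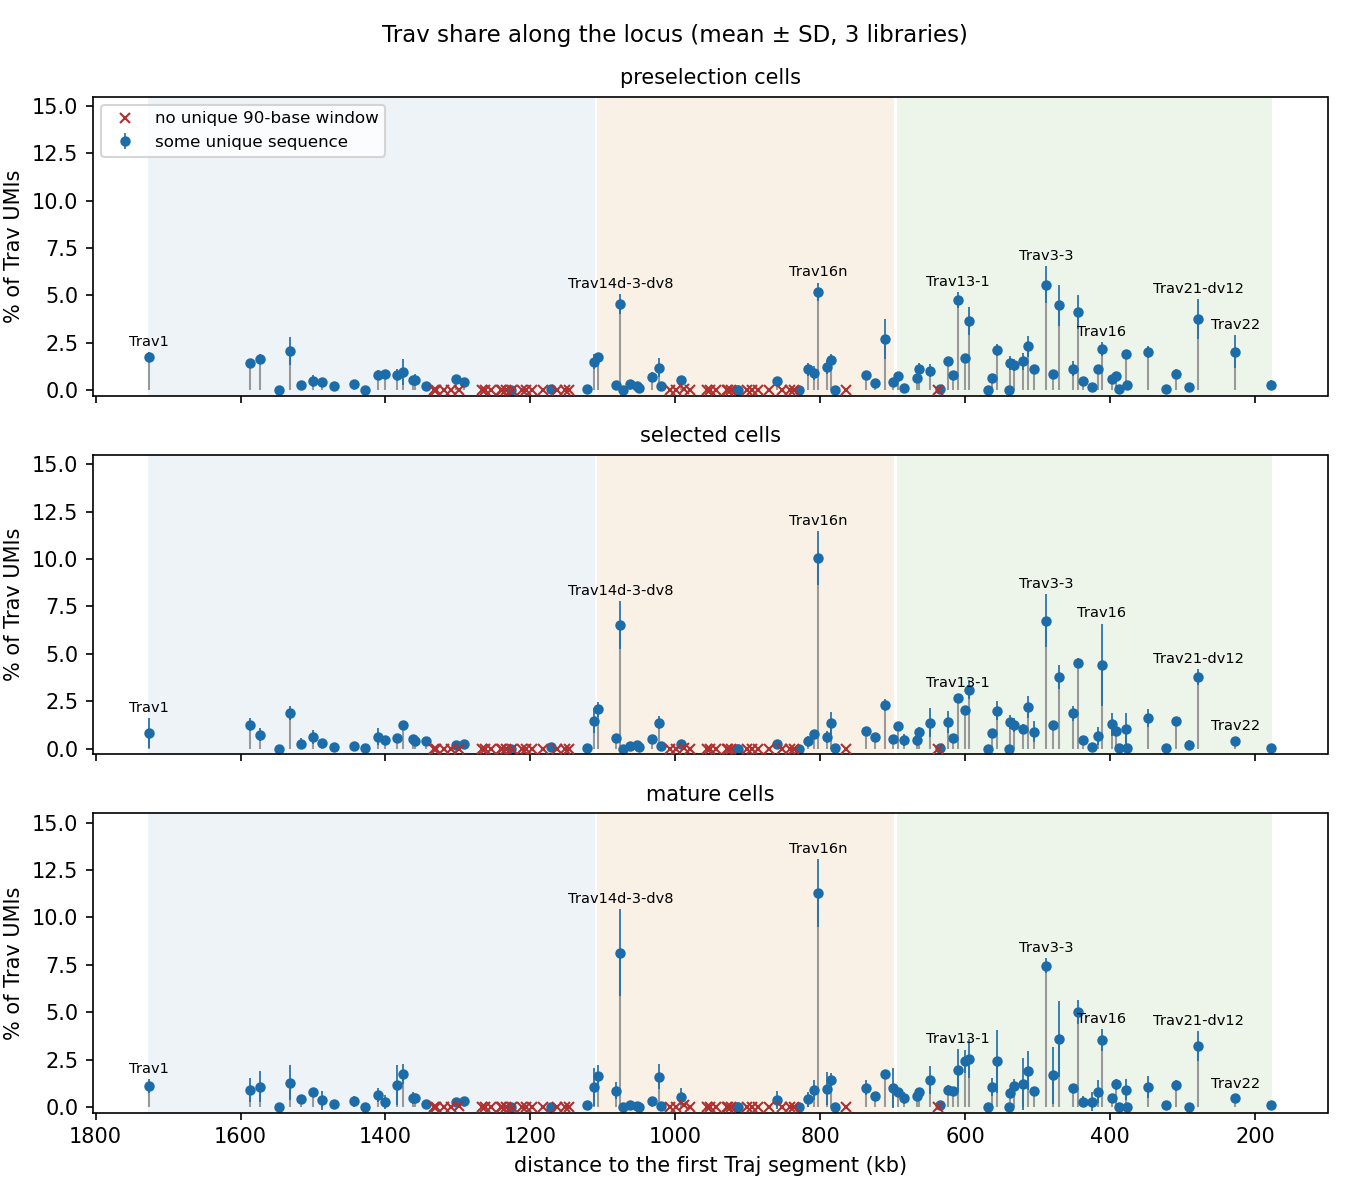
Share of Trav UMIs (y axis, percent, mean ± SD of the 3 libraries) against distance to the first Traj segment (x axis, kb, falling from left to right) for every member in preselection, selected and mature cells. Shading marks the distal, middle and proximal sections, and crosses mark members with no unique 90-base window. Trav16n rises from a mean of 5.19% to 10.04% and 11.3%, and the crosses lie near 0 in every stage.

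Among cells that met the preselection rule, those with UMIs of cycling markers had larger shares of proximal Trav genes, in a split made after the values had been seen. The sets differed in other genes and in depth as well, as given below. Cells were separated by UMIs of Mki67, Top2a, Cdk1, Ccnb2 and Nusap1, genes of dividing cells. By leading gene, the proximal section held 57.2%, 57.8% and 52.6% of preselection cells with none of these UMIs. It held 70.7%, 64.5% and 67.9% of cells with at least 1, and 80.9%, 78.5% and 77.5% of cells with at least 5. The distal section held 17.7%, 16.8% and 20.1% in the first and 6.87%, 5.06% and 5.78% in the last of these sets, without overlap of their 95% intervals. The difference between cells with at least 1 and with no such UMI was 11.8 percentage points ± 4.58 (SD, n = 3 libraries) for the proximal section, higher in 3 of 3, with p = 0.25 in an exact two-sided paired permutation test, the smallest p that 3 libraries allow.

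Genes shared with the delta chain had larger shares in the same cells. No test was made of single genes here, and those named were chosen after their values were seen. The 10 members shared with the delta chain were the leading gene in 18.6%, 22.2% and 15.6% of preselection cells without cycling-marker UMIs, in 36.3%, 30.8% and 32.8% of those with at least 1, and in 50.4%, 40.5% and 49.7% of those with at least 5. Trav15-1-dv6-1 took 1.89%, 2.52% and 1.55% of Trav UMIs in the first set and 18.4%, 6.88% and 9.81% in the last. Trav21-dv12 took 2.12%, 2.34% and 2.25% in the first set and 9.84%, 9.38% and 13.6% in the last. These 2 genes were higher in the cycling sets in every library. Trav3-3, with the highest mean share in preselection cells as a whole, went the other way, from 5.16%, 7.55% and 6.13% to 0.656%, 1.25% and 1.09%. The distal end genes did so too, with Trav1 at 1.83%, 1.82% and 2.76% in the first set and at 1, 0 and 0 UMIs in the last.

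Trdc, the constant gene of the delta chain, moved with the same split. Its level was 39.8, 35.1 and 38.7 UMIs per 1000000 UMIs (CPM) in preselection cells without cycling-marker UMIs and 234, 314 and 224 CPM in those with at least 5. A Trdc UMI was found in 7.13%, 5.25% and 6.04% of cells in the first set and in 64.5%, 64.9% and 65.7% in the last. Trac, the constant gene of the alpha chain, went from 454, 632 and 627 CPM to 76.2, 84.3 and 82.2 CPM, and Cd4 from 602, 488 and 605 CPM to 115, 128 and 115 CPM. Ptcra, of the pre-T receptor, went from 43.1, 69.8 and 36.4 CPM to 71.1, 144 and 64.4 CPM. Depth moved with the split too, with medians of 2626, 1909 and 2169 UMIs in the first set and 12110, 10195 and 10167 in the last, and 2 cells in 1 droplet were not removed. Among cells with no Trdc UMI, the delta-shared members led in 18.6%, 21.7% and 15.48% of cells without cycling-marker UMIs and in 19 of 44 (43.2%), 10 of 38 (26.3%) and 27 of 69 (39.1%) of those with at least 5. In p53 AD/- this last share has a 95% interval of 13.4 to 43.1%, which holds the first. Among the members not shared with the delta chain, the proximal section held 52.9%, 53.4% and 51.7% of UMIs in the first set and 74.0%, 77.8% and 74.4% in the last. Few UMIs carry these last shares, since 155, 70 and 187 of the 305, 160 and 367 Trav UMIs of that set were of delta-shared members. Whether the 2 sets hold the same kind of cell was not tested.

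**Figure D3:**
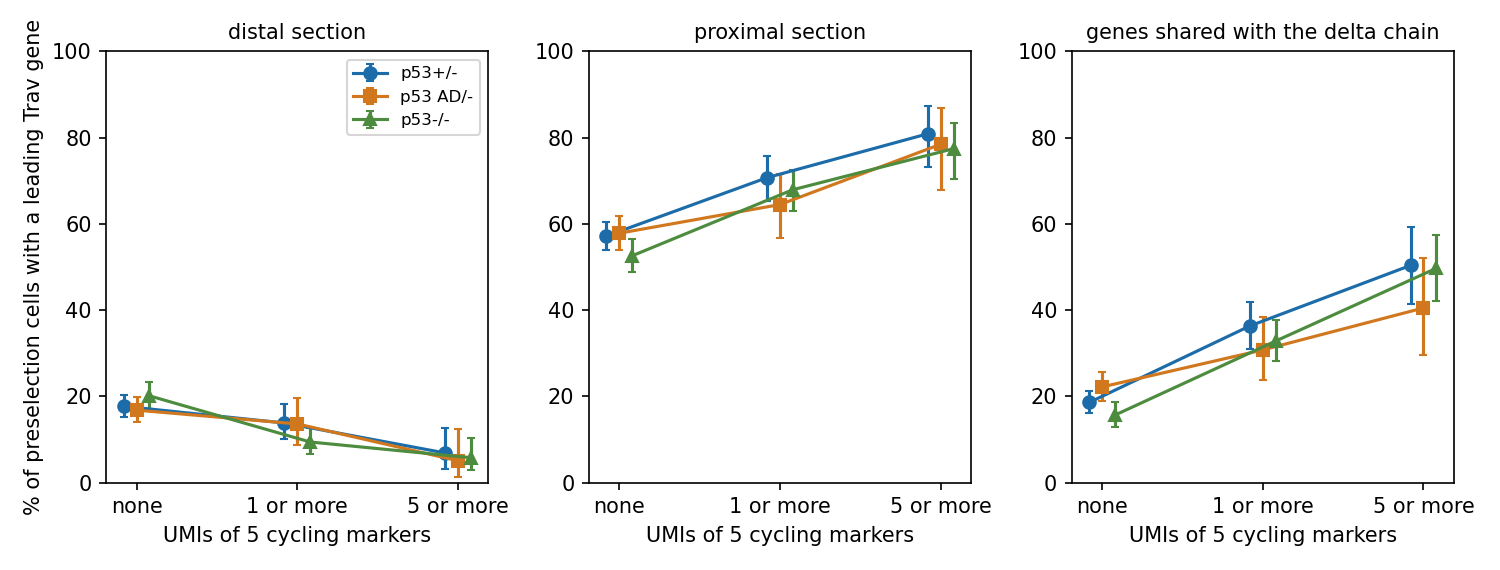
Share of preselection cells (y axis, percent of cells with a leading Trav gene) whose leading gene lay in the distal section, the proximal section or among the 10 genes shared with the delta chain, by the UMIs of 5 cycling markers (x axis). The middle set includes the last. Lines are libraries and bars exact Clopper-Pearson 95% intervals. The proximal share lies between 77.5% and 80.9% in the cells with 5 or more, and the distal share between 5.06% and 6.87%.

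After selection the middle of the locus held a larger share in every library, a difference that 3 libraries cannot take past a threshold of 0.05. The middle section went from 23.0%, 25.9% and 24.9% of Trav UMIs in preselection to 28.6%, 30.2% and 30.1% in selected and 34.9%, 31.8% and 32.1% in mature cells, higher in 3 of 3 libraries at each step. The mean difference was 5.01 percentage points ± 0.65 (SD, n = 3) for selected over preselection and 8.34 ± 3.14 for mature over preselection, each with p = 0.25 in the exact paired permutation test, the smallest it can give. The distal section was 12.3%, 12.9% and 11.5% in selected cells, lower than in preselection in 3 of 3 libraries by 3.75 ± 1.55 points (exact p = 0.25). The proximal section was 59.2%, 56.9% and 58.5% in selected cells, which is within 2.24 points of preselection in each library. In mature cells it was 51.1%, 58.1% and 52.98%, lower than in preselection in 3 of 3 libraries by 5.35 points on average, but by 1.01 points only in p53 AD/-.

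In cells without cycling-marker UMIs the middle section was also higher after selection, going from 25.0%, 26.1% and 26.0% in preselection to 31.9%, 31.7% and 31.5% in selected cells. Without the Trav16 subgroup the middle section went from a mean of 19.4% to 21.0% and 23.9%, and its mean difference between selected and preselection cells was 1.53 points, against 5.01 points for the middle section with that subgroup kept in the count. Mature cells carried more RNA of other cell types: the 11 myeloid and dendritic markers summed to 2667, 3985 and 6889 CPM there, against 309, 366 and 960 CPM in preselection. In mature cells with a Cd3 UMI and fewer than 5 UMIs of other types' markers, the middle section was 36.7%, 32.2% and 31.8%, close to that of all mature cells.

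**Figure D4:**
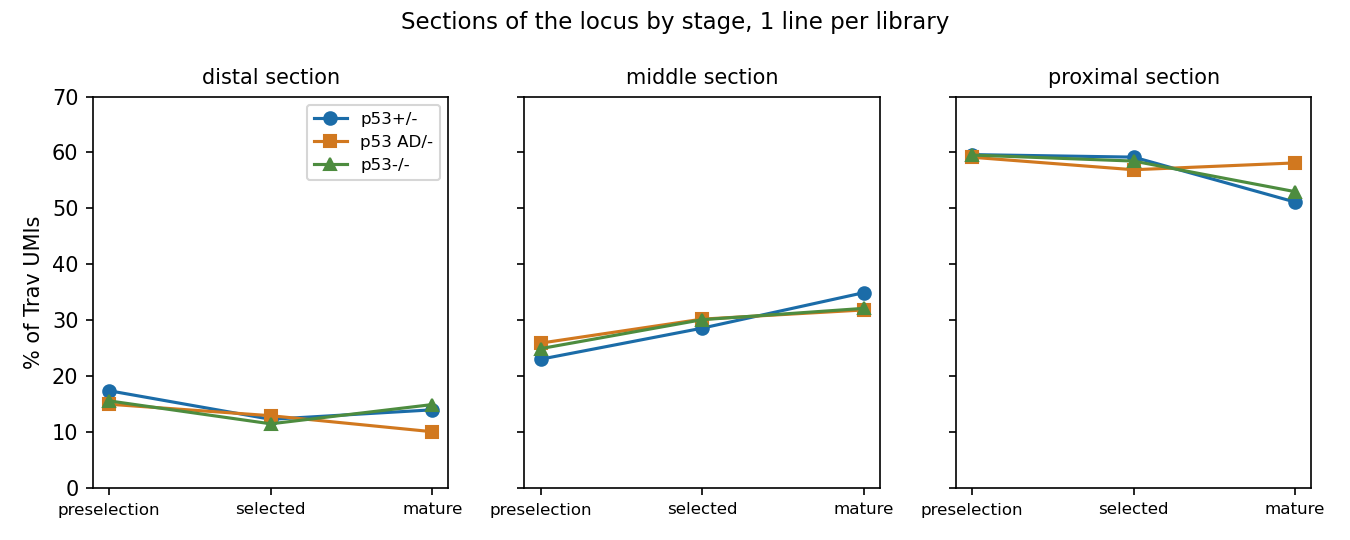
Share of Trav UMIs (y axis, percent) in the distal, middle and proximal sections of the locus by stage (x axis), with 1 line per library. The middle section is higher at each step in all 3 libraries, going from between 23.0% and 25.9% to between 31.8% and 34.9%.

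Gene by gene, levels were tested on UMIs summed per library and stage with edgeR's quasi-likelihood test, with library as a block and Benjamini-Hochberg adjustment over the 12489 genes tested. Of the 128 members, 47 passed the filter on low counts. From preselection to selected cells 7 rose and 2 fell at an adjusted p under 0.05, that is 7 of 47 against 20.2% of all genes that rose, and 2 of 47 against 18.3% that fell (38.5% in either direction). The members' median log2 fold change was 0.18, against -0.02 over all genes. As a share these counts were no higher than the background. Without library as a block 2 rose and 1 fell, and DESeq2 called 3 and 1.

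Trav16n rose most clearly. It had 116, 74 and 110 UMIs in preselection cells (4.85%, 4.99% and 5.74% of Trav UMIs) and 152, 106 and 163 in selected cells (9.01%, 9.44% and 11.7%), a log2 fold change of 1.21 (SE 0.12, edgeR adjusted p = 1.56e-05). The share groups do not overlap, and in mature cells it was 9.88%, 10.7% and 13.3%. Trav16 went from 2.55%, 1.82% and 2.09% to 4.09%, 2.40% and 6.73% of Trav UMIs (log2 fold change 1.25, SE 0.24, edgeR adjusted p = 0.00193). The p53-/- library stood highest in selected cells. Trav14d-3-dv8, Trav3-3, Trav5-4, Trav7-4 and Trav13-4-dv7 were the other 5 that rose, by log2 fold changes from 0.56 to 1.27. Measured against summed Trav UMIs in place of all UMIs, which moves the median of all genes by -0.28, Trav16n (0.95) and Trav16 (0.99) were the 2 that rose and 4 fell.

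Trav22 fell most. It had 49, 17 and 55 UMIs in preselection cells and 10, 1 and 6 in selected cells, which is 2.05%, 1.15% and 2.87% against 0.593%, 0.0890% and 0.430% of Trav UMIs. The groups do not overlap, and the log2 fold change was -2.13 (SE 0.40, edgeR adjusted p = 0.00171). Trav13n-3, which shares 99.7% of its aligned sequence with Trav13d-3, went from 27, 21 and 14 UMIs to 5, 8 and 2 (log2 fold change -1.35, SE 0.47, edgeR adjusted p = 0.0429). Trav13-1 had 4.43%, 4.59% and 5.22% of Trav UMIs in preselection and 2.85%, 2.76% and 2.44% in selected cells. Its fall passed the test when measured against summed Trav UMIs (log2 fold change -0.81, edgeR adjusted p = 0.0196) and not against all UMIs (-0.55, adjusted p = 0.132). Trav3-1, near the distal end, fell on the first measure as well (-1.20, adjusted p = 0.0268).

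From selected to mature cells no member rose and 2 fell, Trav5-4 (log2 fold change -1.13, SE 0.34) and Trav13-4-dv7 (-1.73, SE 0.52), each at an edgeR adjusted p of 0.020 to 0.021. Among all genes 23.3% rose and 20.1% fell (43.4% in either direction). At an unadjusted p under 0.05 there were 6 members, all lower in mature cells, and DESeq2 called none in either direction. From preselection to mature cells 3 rose and 4 fell, against 31.6% and 28.2% of all genes (59.7% in either direction). Those that rose were Trav16n (log2 fold change 1.11, SE 0.13, edgeR adjusted p = 1.97e-05), Trav14d-3-dv8 (0.82, SE 0.22, adjusted p = 0.00719) and Trav16 (0.69, SE 0.27, adjusted p = 0.0450). Those that fell were Trav22 (-2.06), Trav13n-3 (-1.63), Trav13-1 (-1.24, SE 0.32, adjusted p = 0.00591) and Trav17 (-1.03, adjusted p = 0.0435). Each of the called members is named here, and several were chosen for that after their values were seen. Without the p53+/- library 2 rose from preselection to selected cells, without p53 AD/- 3 and without p53-/- 4, so the count depended on every library. Leaving out p53+/- also took the mature over preselection counts to 1 risen and 2 fallen.

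Of the mature cells placed in a CD4 or a CD8 set, the CD8 set held most Trav16 UMIs, in few cells and with a small difference in p53 AD/-. All mature cells held 30, 17 and 33 Trav16 UMIs, so some lay in cells of neither set. Mature cells with at least 2 Cd8a or Cd8b1 UMIs and no Cd4 UMI held 17, 7 and 22 Trav16 UMIs. These were 5.96%, 3.08% and 7.56% of their 285, 227 and 291 Trav UMIs. Mature cells with a Cd4 UMI and no Cd8a or Cd8b1 UMI held 0 of 141, 2 of 97 and 0 of 141, and a count of 0 in 141 allows up to 2.13%, taking 3 counts as the limit. In p53 AD/- the CD4 share was 2.06%. Trav16 was the leading gene in 6, 3 and 5 of the CD8 cells and in 0 of the CD4 cells of each library. Trav16n took 13.3%, 11.9% and 20.6% in the CD8 cells and 6.38%, 15.46% and 7.09% in the CD4 cells, an order that turns in p53 AD/-. These 2 genes were picked after their values were seen, and the UMIs of a cell are not independent, so no test is given.

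**Figure D5:**
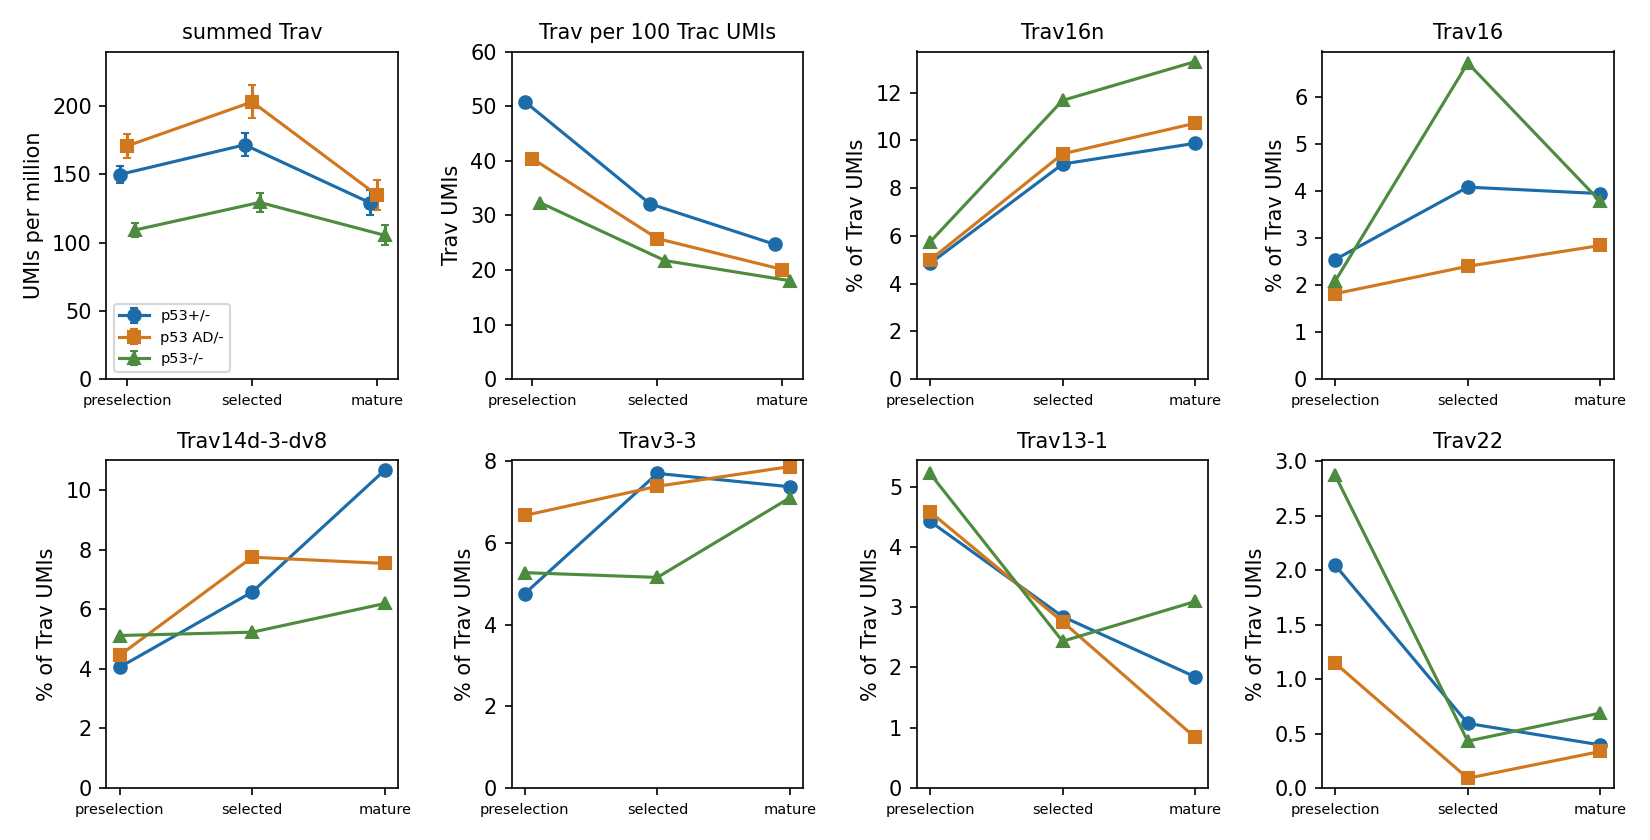
Summed Trav level (CPM, with exact Poisson 95% intervals), Trav UMIs per 100 Trac UMIs, and the share of Trav UMIs (percent) of 6 members, each by stage on the x axis with 1 line per library. Trav16n is higher and Trav22 lower after preselection in every library, and p53-/- is the lowest line for the summed level in each stage.

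Fewer members carried the Trav UMIs after selection. The effective number of members went from 52.8, 50.8 and 50.2 in preselection to 44.0, 42.4 and 41.5 in selected and 40.7, 37.5 and 39.6 in mature cells, lower in 3 of 3 libraries at each step, while the number of Trav UMIs it is based on also fell, from between 1483 and 2394 to between 597 and 872. The 20 annotated pseudogenes held 3.93%, 4.38% and 5.48% of Trav UMIs in preselection, 1.96%, 1.96% and 1.65% in selected and 1.71%, 2.51% and 1.61% in mature cells. The preselection values lie above all later ones. Trav22 and Trav8-2 held most of them in preselection, with 49, 17 and 55 UMIs for Trav22 and 24, 18 and 22 for Trav8-2. In selected cells Trav8-2 had 11, 13 and 3 UMIs, against 10, 1 and 6 for Trav22. The stop-free stretch of Trav8-2 is 112 codons, within the range of the V genes, and those of Trav13-3 and Trav9n-1 are 111 codons each, so annotation as a pseudogene does not mean a broken frame in every case. Transcripts of the most proximal stretch, Trav17 to Trav23, made up 8.86%, 7.28% and 11.4% in preselection and 5.80%, 5.19% and 7.22% in mature cells, with p53 AD/- not lower in selected cells, at 7.84%.

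The summed Trav level and that of Trac moved differently. The Trav level was 150, 171 and 109 CPM in preselection, 172, 203 and 129 CPM in selected and 129, 135 and 105 CPM in mature cells. Trac rose from 295, 423 and 338 CPM to 534, 789 and 596 CPM in selected cells (log2 fold change 0.90, SE 0.06, edgeR adjusted p = 6.68e-07), and was 524, 671 and 585 CPM in mature cells. Trav UMIs per 100 Trac UMIs went from 50.8, 40.4 and 32.3 to 32.1, 25.7 and 21.7 and then to 24.7, 20.1 and 18.0, lower at each step in 3 of 3 libraries. The delta V genes Trdv1 (log2 fold change -1.63, SE 0.23) and Trdv2-2 (-0.90, SE 0.18) and the delta constant gene Trdc (-0.72, SE 0.13) fell from selected to mature cells, each at an edgeR adjusted p of 0.00241 or lower. At least 1 Trav UMI was seen in 37.2%, 32.4% and 28.5% of preselection cells, 54.8%, 52.4% and 45.6% of selected and 53.3%, 50.9% and 44.2% of mature cells. With each cell thinned to 1000 UMIs the shares were 16.8%, 17.7% and 13.3%, then 21.1%, 22.1% and 15.9%, then 14.5%, 13.9% and 11.5%, so mature cells no longer stood above preselection ones.

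Many genes tied to the joining machinery fell across the same steps, and a few rose. A list of 30 genes covered recombination, the DNA damage response with p53 itself, locus control and the receptor complex. Leaving out Rag1, 4 of the other 29 rose and 18 fell from preselection to selected cells. Of all genes 20.2% rose and 18.3% fell at this step. The list median was -0.26 against -0.02 over all genes (log2). From preselection to mature cells 4 rose and 21 fell, where 31.6% of all genes rose and 28.2% fell. The list median was then -0.58 against -0.01. Rag1, which was used to define preselection cells and so is given without a test, went from 1594, 1427 and 1360 CPM to 229, 158 and 251 CPM. Rag2, the partner of Rag1, fell (log2 fold change -2.04, SE 0.08, edgeR adjusted p = 3.72e-08), as did Dntt, which adds untemplated bases at the joins (-1.32, SE 0.11, adjusted p = 4.91e-06). Bcl2l1, which encodes a survival protein of double-positive cells, fell by 1.44 on the log2 scale (SE 0.07, edgeR adjusted p = 1.70e-07).

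A cell can hold transcripts of more than 1 Trav gene, since both alleles can rearrange. Cells in which 2 subgroups had at least 2 UMIs each made up 2.94%, 2.53% and 2.81% of preselection cells that had any subgroup at that level, 8.51%, 7.33% and 4.85% of selected and 11.9%, 16.7% and 7.05% of mature cells. Depth rose over these stages as well, doublets were not removed, and their part in the increase was not tested. The pair seen together most was Trav16d-dv11 with Trav16n, in 42, 33 and 39 cells, which is 42.9%, 50.0% and 41.5% of the cells with a Trav16d-dv11 UMI. These are the genes printed above that differ at 1 position in 120 bases, so reads can be split between them. Trav4-3 with Trav4-4-dv10 was seen in 18, 13 and 7 cells. Members next to each other on the chromosome made up 5.78%, 4.56% and 4.34% of all co-detections, against 2.0%, 2.01% and 2.04% of the possible pairs. The possible pairs count every pair of detected members alike, so this comparison does not allow for how common each gene is. Neighbouring pairs included the pseudogene Trav8-2 with Trav16, 4.27 kb apart, in 9, 5 and 3 cells.

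A Trav gene and a Traj segment were seen together in few cells. They were UMIs of the same cell, and whether they were joined in 1 transcript was not tested. Only 124 cells had a leading Trav gene and a Traj UMI, 26 of them with Traj18. Of these cells, a Traj segment of the upstream set (Traj61 to Traj32, 30 of 60 segments) was found in 60 of 79 with a proximal Trav gene (75.9%, exact Clopper-Pearson 95% interval 65.0 to 84.9%), in 11 of 24 with a middle one and in 10 of 21 with a distal one. These counts pool the 3 libraries, and their intervals cover counting error only. By library, the proximal cells were 25, 14 and 21 with an upstream segment and 8, 4 and 7 with a downstream one. Without the Traj18 cells the counts were 60 of 69, 11 of 17 and 10 of 12, with 83.3% for the distal section (51.6 to 97.9%) and 87.0% for the proximal one. Traj18, the segment of invariant natural killer T cells, lies in the downstream set, so leaving out its cells can only raise the upstream shares. A Traj18 UMI is not taken here as a mark of that cell type. Preselection cells held 7, 2 and 11 Traj18 UMIs. The leading genes beside it included Trav15-1-dv6-1, Trav16n and Trav3-1 and no Trav11 gene, although Trav11 can hardly be counted.

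Between genotypes, the proximal share of preselection cells ran from 59.1% to 59.6%, and its differences lay within counting error. By UMIs they were -0.47 points for p53 AD/- minus p53+/- (95% interval -3.70 to 2.74), -0.08 for p53-/- minus p53+/- (-3.06 to 2.90) and -0.39 for p53 AD/- minus p53-/- (-3.77 to 2.97). By cells counted once they were -1.41 (-5.86 to 3.02), -2.39 (-6.49 to 1.71) and 0.98 (-3.62 to 5.55) in the same order. The middle section was 2.88 points higher in p53 AD/- than in p53+/- by UMIs (0.06 to 5.73), and 1.99 points by cells counted once (-1.85 to 5.90), while the distal section differed by -2.41 points (-4.79 to 0.03) by UMIs. The proximal result depended on which cells and members were counted. Without cells that had cycling-marker UMIs, p53 AD/- stood 4.28 points above p53-/- (0.17 to 8.37), whereas with the 10 members at each end of the locus it stood below p53-/-, by -4.37 points (-6.55 to -2.15), and with members grouped by subgroup number by -6.63 points (-9.86 to -3.37). In mature cells p53 AD/- stood 7.0 points above p53+/- in the proximal section by UMIs (1.56 to 12.4), but 2.52 points by cells counted once (-6.49 to 11.5). The mature distal section of p53 AD/- was lower by UMIs than that of p53+/- (-3.92 points, -7.44 to -0.31) and of p53-/- (-4.86, -8.28 to -1.31). By cells counted once these distal differences were 0.11 (-6.23 to 6.63) and -0.55 (-6.40 to 5.70). All these intervals cover counting error only. Those not by cells counted once take each UMI as independent, which UMIs of 1 cell are not, so they are too narrow.

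The amount of Trav RNA did differ between the libraries. The p53-/- library had the lowest summed Trav level in each stage, at 109 CPM (95% Poisson interval 104 to 114) in preselection cells against 150 (144 to 156) in p53+/- and 171 (162 to 180) in p53 AD/-. The log2 ratio of p53-/- over p53+/- was -0.46 (-0.54 to -0.37) in preselection, -0.41 (-0.51 to -0.30) in selected and -0.29 (-0.44 to -0.15) in mature cells. The p53 AD/- library lay above p53-/- by 0.65, 0.65 and 0.35 on the same scale. Trac did not follow this order, since it was lowest in p53+/-, and Trav UMIs per 100 Trac UMIs were highest in p53+/- and lowest in p53-/- in every stage. With 1 library per genotype these are differences between libraries, and fewer Trav-positive cells and less Trav RNA per cell both enter them.

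The lower level in p53-/- was spread over the members. Of 56 members with at least 20 UMIs over the pair in preselection cells, 50 were lower in p53-/- than in p53+/- in CPM, with a median log2 ratio of -0.49 against 0.06 over all 12584 such genes. Past a 2-fold ratio, 11 of the 56 were lower and 0 higher, where 1.71% of all genes were lower and 3.7% higher. For p53 AD/- over p53-/-, 15 of 48 were higher past 2-fold and 0 lower, against 2.18% and 9.02% of all genes. For p53 AD/- over p53+/-, 1 of 55 was higher and 3 lower, against 1.61% and 5.79%. The pairs share libraries, so they are not independent. The background was not matched for counts, and low counts pass a 2-fold ratio more easily. Among the 11 lower in p53-/- than in p53+/- were Trav6d-5 (7 against 22 UMIs) and Trav6-7-dv9 (59 against 110). Cycling-marker levels of preselection cells were 1455, 1484 and 2424 CPM, highest in p53-/-. In preselection cells without cycling-marker UMIs the Trav level was 220, 239 and 176 CPM, and the log2 ratio of p53-/- over p53+/- was -0.32 (-0.43 to -0.21), with Trav UMIs per 100 Trac UMIs at 48.5, 37.9 and 28.1.

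As shares of preselection cells by leading gene, few members differed between libraries. Among the 42 members with at least 20 cells over p53-/- and p53+/-, Trav8d-1 was lower past 2-fold in p53-/- (5 of 1064 against 22 of 1215 cells, log2 ratio -1.95, 95% interval -3.70 to -0.51). Trav6n-6 was higher (20 against 10 cells, 1.19, 0.03 to 2.45). Trav8d-1 was low in p53 AD/- as well, with 5 of 800 cells (-1.53 against p53+/-, -3.29 to -0.10). Trav22 led in 9 cells of p53 AD/-, against 30 in p53+/- (log2 ratio -1.13, -2.39 to -0.02) and 36 in p53-/- (-1.59, -2.83 to -0.51). Trav12-2, with 6 against 19 cells, was the last of the 3 members lower past 2-fold in p53 AD/- than in p53+/-, among 38, and its interval held 0. Against p53-/-, Trav5-4 and Trav6n-6 joined Trav22 among 34 members. Intervals that exclude 0 were found for 2 of 38, 3 of 42 and 1 of 34 members, for counting error only and without adjustment for the number of members.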

How the data were processed

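Droplet single-cell RNA libraries of 3 thymi were used. The authors deposited UMI counts per gene and barcode from Cell Ranger 4.0.0, per the file headers, and GRCm38 is named in the submitters' processing notes. Annotation, chemistry and use of strand are not stated in these sources, and reads that match several Trav genes equally may go uncounted.

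Cells with at least 500 genes and under 10% mitochondrial UMIs were kept, which left 8150, 6171 and 9543 of 8880, 6308 and 9889 barcodes, with 46498800, 27638820 and 54164425 UMIs in all. No doublet caller was run and doublets remain. Members were located in GENCODE M21 and ranked by distance to Traj61, and sequences come from its transcripts, not from RefSeq. UMIs were summed per library and stage. edgeR 4.0.16 (R 4.3.3; filterByExpr, TMM, quasi-likelihood F test, Benjamini-Hochberg over all genes tested) had stage and library as terms, and DESeq2 1.42.0 was an alternative. The 3 libraries are mice of different genotypes, so p-values rest on the spread between them. Each library gives all 3 stages, so the stages are paired by mouse and the library block was part of the design. Sections of the locus (members split by rank into 43 distal, 43 middle and 42 proximal) were compared with exact paired permutation tests. Between genotypes there is 1 library each, so differences carry 95% intervals (Clopper-Pearson, Poisson or their combination) that cover counting error only, and members were called past a 2-fold ratio. Intervals by UMIs take each UMI as independent, which UMIs of 1 cell are not, so they are too narrow.

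Members named were the 10 with the highest preselection share, the 3 at each end of the locus, those with the largest consistent share ratios between stages or genotypes among members with enough counts, Trav1 and the Trav11 genes; others are named as chosen after their values were seen. The members and all lists were chosen with earlier results of these data known. Cell and stage thresholds, counting by cell, copies, sections, normalization, filter, block and each library were varied. Scripts were tested on simulated counts. Python 3.11.15 with scipy 1.17.1 was used. Genes of the list of 30 not named in the text are given by count only.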

Additional observations from a re-analysis of the deposited data

How the results depend on the processing

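The larger middle share and the smaller distal share of selected cells kept their direction under each alternative tried, with 1 exception for the middle section. With members grouped by subgroup number (1 to 7 distal, 14 and higher proximal) in place of position, the middle difference was -4.12 for selected minus preselection, -0.063 for mature minus selected and -4.19 for mature minus preselection, and the proximal ones 6.90, 0.038 and 6.94. The same grouping gave mean shares in preselection, selected and mature cells of 34.5%, 41.4% and 41.4% (proximal), 40.6%, 37.9% and 37.9% (distal), and 20.8% and 20.7% in the last 2 stages (middle). It also turned the mature difference of p53 AD/- minus p53+/- to -1.24 and moved the preselection differences to 2.94 (p53-/- minus p53+/-, 0.019 to 5.86) and -6.63 (p53 AD/- minus p53-/-). Copies of 1 subgroup lie far apart on the chromosome, so the 2 groupings hold different genes. With the 10 members at each end, shares in the 3 stages were 11.4%, 8.57% and 6.99% (proximal), 8.59%, 6.03% and 6.34% (distal) and 80.0%, 85.4% and 86.7% (the rest), with preselection differences of 3.21 (p53-/- minus p53+/-, 1.20 to 5.24) and -4.37 (p53 AD/- minus p53-/-).

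The small proximal difference between selected and preselection cells turned to 1.16 with stage thresholds of 2 UMIs and to 1.42 without the Trav16 subgroup, an alternative added after seeing the data. Without that subgroup the shares were 63.0%, 64.4% and 60.5% (proximal), 17.6%, 14.6% and 15.6% (distal) and 19.4%, 21.0% and 23.9% (middle). Without near-identical copies, preselection and selected shares were 64.2% and 61.1% (proximal), 14.2% and 10.9% (distal) and 21.6% and 28.0% (middle). In cells without cycling-marker UMIs, also added, they were 56.4% and 54.9% (proximal), 17.8% and 13.4% (distal), with 31.7% for the middle section of selected cells and 4.28 for p53 AD/- minus p53-/-. Selected shares were 60.6% (proximal) and 27.7% (middle) with thresholds of 2 UMIs, 56.5% and 31.0% with 5, and 56.7% and 30.8% with cells counted in every stage they met. The preselection proximal share was 61.3% in cells of 1000 genes or more, 59.9% with mitochondrial UMIs under 5% and 58.3% without the called pseudogenes, also added. Counting each cell once gave 13.2% for the distal section of selected cells. With at least 2 UMIs of the leading gene, preselection shares were 58.8% (proximal), 18.1% (distal) and 23.1% (middle), with differences of -4.13 (p53-/- minus p53+/-) and 3.89 (p53 AD/- minus p53-/-).

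Counts of called members were the least stable values. Selected over preselection gave 7 higher and 2 lower, against 3 and 1 by DESeq2, 2 and 1 with no replicate block for the paired stages, 2 and 4 scaled to summed Trav UMIs, 4 and 1 with thresholds of 2 UMIs, and 1 lower both with no filter and with at least 1000 genes per cell. Mature over selected gave 2 lower, against 0 by DESeq2, 0 scaled to Trav UMIs, 7 with no filter and 5 with thresholds of 2 UMIs. Mature over preselection gave 3 higher and 4 lower, against 1 and 2 with no replicate block and 2 lower by DESeq2. Leaving out 1 library gave 2 to 4 higher and 1 to 2 lower (selected over preselection), 0 to 2 lower (mature over selected), and 1 to 3 higher and 2 to 6 lower (mature over preselection). The distal difference of mature minus selected ranged from -0.58 to 2.57, the former without p53-/-. Other causes of these moves were not tested. Of 381 such recomputed summary values, 289 kept their direction and their size. Size was judged against the spread or, for counts of called members, by a set ratio to the main count. Members with few UMIs and those with no unique sequence limit what the shares can show.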
